A study of Mus musculus with 12 samples.

Results

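Expression was examined for 10 genes that p53 is known to switch on and whose products act in programmed cell death, listed in the deposited tables as BAX, BBC3, PMAIP1, FAS, TNFRSF10B, LRDD (the older name of Pidd1), APAF1, PERP, EI24 and AEN. The genes were chosen by name, and all 10 of 10 had values in both tables, among 11481 genes listed in either table and 10292 in both. The RNA came from primary mouse embryonic fibroblasts (MEFs) on a hybrid 129/B6 background, either wild type (WT, lincRNA-p21+/+) or knockout (KO, lincRNA-p21-/-) for a long noncoding RNA that p53 induces. Each genotype was sequenced as 3 mock libraries and 3 libraries of cells given doxorubicin for 24 h, which made 4 groups and 12 libraries in biological triplicate. The labels state the dose as 0.5 mM, a unit that is in doubt because micromolar doses are more usual. Every group shares the strain background and the culture conditions, and no label says from how many embryos the cultures came.

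Doxorubicin is an anthracycline that breaks DNA, and broken DNA stabilises the transcription factor p53. Among the genes p53 switches on are several whose products release cytochrome c from mitochondria (BAX, PUMA, NOXA), receive death signals at the cell surface (FAS, the TRAIL receptor) or assemble caspase-activating platforms (APAF1, PIDD1). Fibroblasts commonly arrest rather than die when p53 is active, so these genes can be induced in cells that survive.

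Doxorubicin raised 8 of the 10 genes in WT cells and the same 8 in KO cells, and none fell in either genotype. The values are CPM (a gene's share of the reads of its library), and differences are on the scale of log2(CPM + 1), which understates the change of low genes. A gene was called at a Benjamini-Hochberg adjusted p below 0.05 over all genes (limma). In WT cells 25.9% of the 10292 genes rose and 21.4% fell, and in KO cells 19.9% rose and 14.6% fell, against which the 8 of 10 stand. The median difference of the 10 genes was 1.12 in WT and 1.09 in KO, beside 0.011 and 0.035 over all genes. Perp moved most, by 4.92 in WT (SE 0.60, adjusted p = 0.000111) and 3.88 in KO (SE 0.60, adjusted p = 0.000824). Bbc3 and Tnfrsf10b passed in neither genotype. In bulk RNA, more transcript per cell and a larger share of cells that make it cannot be told apart.

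**Figure D1:**
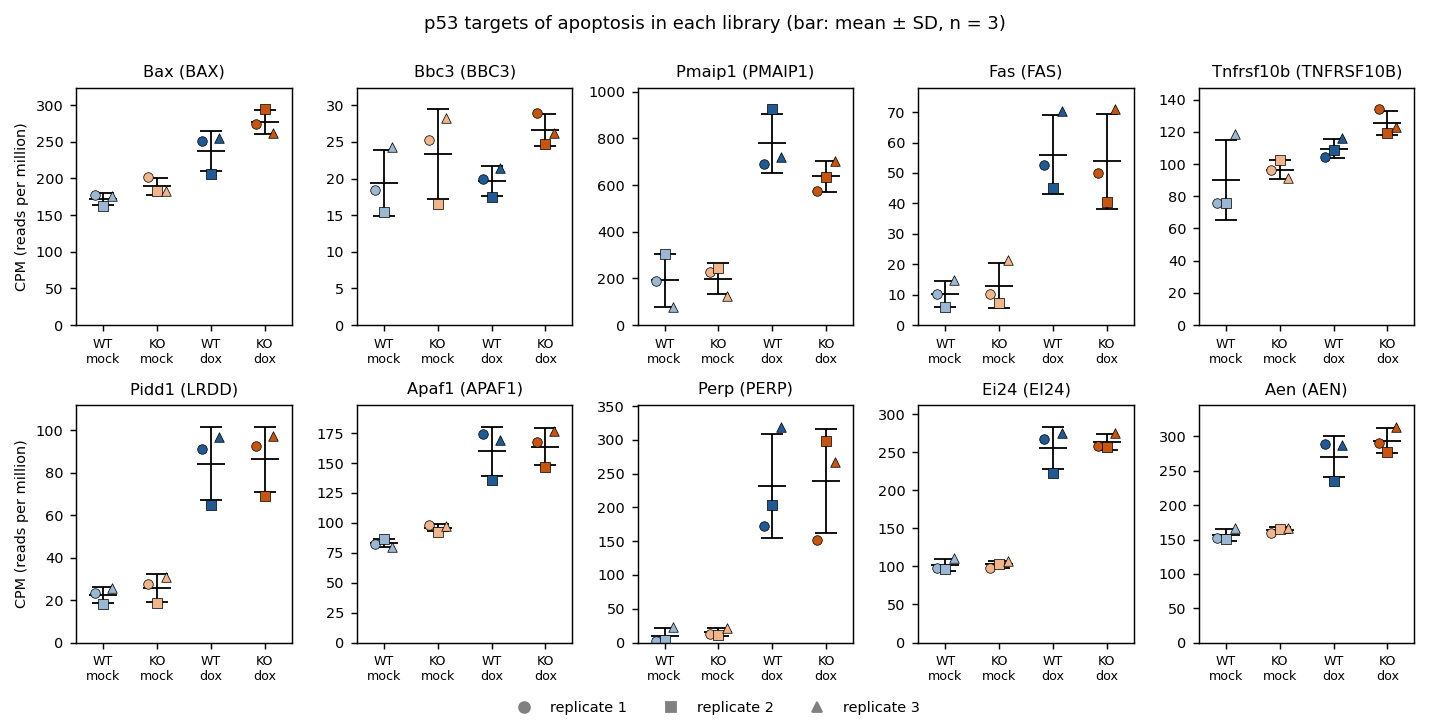
CPM of each of the 10 genes (vertical axis, from 0) in the 12 libraries, by group on the horizontal axis. Points are libraries, with the replicate number as the marker shape, and bars give the mean ± SD of 3 libraries. In 8 panels every doxorubicin library lies above every mock library of its genotype, whereas the Bbc3 groups overlap and WT mock replicate 3 of Tnfrsf10b stands at 119 CPM. The share of all genes with such a separation is not given here.

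Promoter sequence from RefSeq (assembly GRCm38.p6) was searched for 7 of the 10 genes. It came as 10 windows from 250 bases before to 50 bases after an annotated start (3 of Bbc3, 2 of Aen and 1 of each other gene). Any windows of the 10 genes on 1 chromosome were set aside before the search, though not from the shares of all windows. Sequence of the genes not searched may therefore exist. Each window was searched on both strands for the 10-base p53 consensus, of which a full p53 site holds a pair. An exact match lay in windows of Bax, Ei24 and Aen, and 8.36% of all 32851 windows of this length hold one. Pairs of such sequences were counted with at most 3 mismatches in all, none at the central C and G, and at most 1 base between. Such a pair lay in windows of Bax, Bbc3 and Aen, beside 2.82% of all windows. Windows of Fas, Pidd1 and Apaf1 held neither, which says only that these letters are not in those 300 bases. Of the 5 windows with a match, 1 for each of 4 genes is shown, because Bax, Ei24 and Aen rose with doxorubicin in both genotypes and Bbc3, which also has a near match, did not pass. The second window of Aen overlaps the first and holds the same bases, and the other 2 windows of Bbc3 held neither kind of match. The sequences are written 5′ to 3′ on the strand of the gene, with the matching bases in capitals. A match describes the letters and is not a measured binding site.

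Bax (minus strand, chr7:45466849-45467148): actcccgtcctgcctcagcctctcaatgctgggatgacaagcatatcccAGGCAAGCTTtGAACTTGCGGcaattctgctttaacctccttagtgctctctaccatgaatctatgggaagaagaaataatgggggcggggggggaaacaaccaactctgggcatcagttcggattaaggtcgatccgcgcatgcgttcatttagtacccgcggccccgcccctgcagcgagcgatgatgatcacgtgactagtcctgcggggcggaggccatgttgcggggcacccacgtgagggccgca
Bbc3 (plus strand, chr7:16309333-16309632): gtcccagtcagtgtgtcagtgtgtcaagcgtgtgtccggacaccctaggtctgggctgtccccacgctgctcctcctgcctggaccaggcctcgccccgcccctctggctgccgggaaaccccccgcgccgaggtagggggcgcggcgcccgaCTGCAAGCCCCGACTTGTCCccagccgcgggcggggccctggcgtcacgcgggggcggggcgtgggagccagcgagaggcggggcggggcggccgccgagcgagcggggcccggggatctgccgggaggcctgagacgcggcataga
Ei24 (minus strand, chr9:36797285-36797584): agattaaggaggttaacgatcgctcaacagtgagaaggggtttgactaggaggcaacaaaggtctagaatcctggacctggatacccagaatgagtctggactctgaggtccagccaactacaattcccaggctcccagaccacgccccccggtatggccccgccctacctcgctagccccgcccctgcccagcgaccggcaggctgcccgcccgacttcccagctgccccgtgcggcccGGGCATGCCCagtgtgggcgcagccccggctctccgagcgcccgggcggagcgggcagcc
Aen (plus strand, chr7:78895677-78895976): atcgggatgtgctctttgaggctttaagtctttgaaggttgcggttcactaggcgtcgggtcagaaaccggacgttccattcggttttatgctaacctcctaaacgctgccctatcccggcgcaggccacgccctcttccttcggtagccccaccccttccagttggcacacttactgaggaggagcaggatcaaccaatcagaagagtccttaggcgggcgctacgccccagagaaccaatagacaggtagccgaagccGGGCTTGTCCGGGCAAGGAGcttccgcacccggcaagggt

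Counted from the start of transcription, the Bax pair runs from -201 to -181 with 2 mismatches and 1 base between its members, and its upstream member, from -201 to -192, is the exact match. The Bbc3 pair runs from -97 to -78 with 3 mismatches. In Ei24 the exact match lies from -10 to -1, directly before the start. The Aen pair has 3 mismatches and runs from 11 to 30 downstream of the first annotated start, with bases 11 to 20 as the exact match. Against the second annotated start of Aen (window chr7:78895808-78896107) the same pair lies upstream, from -121 to -102.

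Among the genes that act at the mitochondrion, Bax and Pmaip1 rose with doxorubicin and Bbc3 did not pass. Bax encodes a pore-forming member of the BCL2 family that permeabilises the outer mitochondrial membrane. It stood at 177, 163 and 175 CPM in the WT mock libraries (replicates 1, 2 and 3, in this order throughout) and at 252, 206 and 255 after doxorubicin. In KO cells it stood at 203, 183 and 183 in mock and at 274, 294 and 262 after doxorubicin. The 4 groups formed a ladder without overlap, from WT mock through KO mock and WT doxorubicin to KO doxorubicin, although KO mock at its highest (202.5 CPM) and WT doxorubicin at its lowest (206 CPM) nearly touched. The rise was 0.46 in WT (SE 0.10, adjusted p = 0.00360) and 0.55 in KO (SE 0.10, adjusted p = 0.00217), the smallest of the 8.

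Pmaip1, which encodes the BH3-only protein NOXA, an inhibitor of the survival protein MCL1, was the most abundant of the 10 after doxorubicin in CPM. Its WT mock libraries held 189.9, 306 and 79.3 CPM and its WT doxorubicin libraries 692, 925 and 722. The KO libraries held 228, 244 and 124 CPM in mock and 574, 634 and 705 after doxorubicin. Mock replicate 3 was the lowest of its group in both genotypes, and no doxorubicin library overlapped the mock range. Pmaip1 rose by 2.21 in WT (SE 0.40, adjusted p = 0.00113), or 4.07-fold by mean CPM, and by 1.73 in KO (SE 0.40, adjusted p = 0.00710), or 3.21-fold.

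Bbc3 encodes PUMA, a BH3-only protein that binds all of the anti-apoptotic BCL2 relatives. It was low throughout, with 18.5, 15.4 and 24.4 CPM in the WT mock libraries and 20.0, 17.5 and 21.5 CPM in the WT doxorubicin libraries. KO libraries gave 25.2, 16.5 and 28.3 CPM in mock and 29.0, 24.7 and 26.2 after doxorubicin. Mock and doxorubicin libraries overlapped in each genotype. The WT difference was 0.033 (SE 0.21, adjusted p = 0.906), with a 95% interval from -0.42 to 0.49, which reaches as far as the rise of Bax. That WT difference turned to -0.031 with quantile normalization and -0.077 with median centring. In KO cells it was 0.21 (SE 0.21, adjusted p = 0.455), with an interval from -0.24 to 0.67.

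The death receptor genes differed from each other. Fas encodes the receptor of Fas ligand, which recruits FADD and caspase-8 once bound. WT mock libraries held 10.2, 6.01 and 14.7 CPM of it and WT doxorubicin libraries 52.6, 44.9 and 70.4. The KO values were 10.3, 7.17 and 21.3 CPM in mock and 49.9, 40.6 and 70.9 after doxorubicin. In all 4 groups replicate 2 was the lowest and replicate 3 the highest, and the mock and doxorubicin ranges lay well apart. Fas rose by 2.39 in WT (SE 0.38, adjusted p = 0.000512) and by 2.07 in KO (SE 0.38, adjusted p = 0.00207), the largest rise after Perp.

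Tnfrsf10b, the mouse TRAIL death receptor gene, gave 75.9, 76.1 and 119 CPM for WT mock and 104, 109 and 116 CPM for WT doxorubicin libraries. In KO cells it was at 96.2, 102 and 91.2 CPM in mock and 134, 119.5 and 123 after doxorubicin. WT mock replicate 3 lay above all 3 WT doxorubicin libraries, whereas the KO groups did not overlap. The differences were 0.31 in WT (SE 0.15, adjusted p = 0.118) and 0.37 in KO (SE 0.15, adjusted p = 0.0802). With the replicate number as a block, Tnfrsf10b passed in KO (adjusted p = 0.0459), which made 9 of 10 genes higher and 0 lower there, beside 29.6% higher and 24.0% lower of all genes. In WT the blocked count of higher genes was again 8 of 10 (33.6% of all genes). Without WT mock replicate 3 the WT difference was 0.52 and passed (adjusted p = 0.00313), beside 22.5% of all genes higher. The KO difference of 0.37 also passed without that WT library (limma adjusted p = 0.0116), where 1982 of 10292 genes were higher. It passed in a fit of the KO libraries alone as well (limma adjusted p = 0.031), where 1830 genes were higher. In WT, Tnfrsf10b thus passed only in fits that left out that 1 library. In KO it passed without that library and also with it under the block.

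Genes for caspase platforms rose in both genotypes. Pidd1 encodes a death domain protein that forms the PIDDosome with RAIDD and caspase-2, and it gave 23.6, 18.4 and 25.6 CPM for WT mock and 91.3, 64.7 and 97.0 CPM for WT doxorubicin libraries. Its KO libraries held 27.5, 18.5 and 31.1 CPM in mock and 92.8, 68.9 and 97.4 after doxorubicin. Replicate 2 was the lowest library of each group, and the size of the step from mock to doxorubicin in libraries of the same number varied little, from 1.76 to 1.91 in WT and from 1.62 to 1.84 in KO. The fitted rise was 1.85 in WT (SE 0.22, adjusted p = 0.000101) and 1.73 in KO (SE 0.22, adjusted p = 0.000303).

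Apaf1 encodes the scaffold of the apoptosome, which binds cytochrome c and activates caspase-9. WT libraries held 82.1, 86.6 and 79.9 CPM in mock and 174, 136 and 169 after doxorubicin. KO libraries held 98.1, 92.7 and 97.0 CPM in mock and 168, 146 and 177 after doxorubicin. Mock and doxorubicin ranges did not meet. It rose by 0.93 in WT (SE 0.11, adjusted p = 9.24e-05) and by 0.76 in KO (SE 0.11, adjusted p = 0.000561).

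Perp encodes a tetraspan membrane protein of desmosomes and the plasma membrane that p53 and its relative p63 both regulate. Its WT mock libraries held 2.09, 4.51 and 22.9 CPM, a 10.9-fold spread within the group, and its WT doxorubicin libraries 172, 203 and 319 CPM. The KO mock libraries held 12.2, 11.8 and 21.8 CPM and the KO doxorubicin libraries 152, 298 and 267. The lowest doxorubicin library thus lay far above the highest mock library in each genotype. WT mock replicate 1 sits just above the level of 2 CPM that every listed gene exceeds in all WT libraries. By mean CPM the rise was 23.5-fold in WT and 15.7-fold in KO, and it ranked 5 and 8 among the 10292 genes. The rise in libraries of the same number was 5.81, 5.21 and 3.74 in WT, where replicate 3, with the highest mock level, gave the smallest. In KO it was 3.54, 4.55 and 3.56, and there replicate 3 did not stand apart.

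Some epithelial marker genes also changed with doxorubicin. Of 20 epithelial and keratinocyte markers, 8 were listed in both tables, of which 5 rose and 1 fell in WT and 4 rose and 1 fell in KO with doxorubicin. With the block 7 rose and 1 fell in WT and 5 rose and 1 fell in KO. Of all genes, 33.6% rose and 30.1% fell in WT with the block, and 29.6% and 24.0% in KO. Their summed level in mock libraries was 208 to 331 CPM for WT and 176 to 349 CPM for KO, and it was 876 to 1183 CPM in WT and 495 to 1052 CPM in KO doxorubicin libraries, where Pkp3 and Cldn4 were listed as well. None of the listed markers was at 0. The other entries of that list, Cdh1, Epcam, Krt5 and Krt14 among them, are listed in neither table. Both tables hold only genes above 2 CPM in all WT libraries, and the levels of those entries are not known here. The desmoplakin gene Dsp, a partner of Perp in desmosomes, rose by 3.80 in WT and 3.69 in KO. The desmosome gene Pkp1 did not pass without the block, at 0.73 in WT (adjusted p = 0.515, and 0.0416 with the block) and -0.36 in KO (adjusted p = 0.782), while the tight junction gene Cldn1 fell by 1.62 and by 1.48. Fibroblast markers, 11 of 12 listed, summed to 47179 to 64305 CPM in mock and 29883 to 40127 CPM in doxorubicin libraries. Without the block 4 were lower in WT and 3 in KO, and with it 8 in WT and 7 in KO, with 0 higher in either fit. Of the endothelial markers 4 of 10 were listed in each table, summing to 26.4 to 55.8 CPM in mock and 63.9 to 109 CPM in doxorubicin libraries. The 4 were not the same genes, as Emcn was listed only in mock and Vwf only after doxorubicin, so these sums are not like for like. Of 14 blood and macrophage markers Cd68 was listed in mock (2.42 to 58.3 CPM), and Cd68 and Cd14 together made 69.0 to 157 CPM after doxorubicin. The 2 of 10 skeletal muscle markers listed summed to 30.9 to 434 CPM in mock and 22.6 to 204 CPM in doxorubicin libraries. The part of other cell types in the rise of Perp and of the other genes was not tested.

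Ei24, also known as PIG8, encodes a membrane protein of the endoplasmic reticulum that p53 induces and that has been linked to autophagy. Mock libraries held 98.3, 96.7 and 111 CPM in WT and 97.3, 104 and 107 CPM in KO. After doxorubicin it held 268, 223 and 275 CPM in WT and 258, 257 and 275 CPM in KO libraries. Its mock groups overlapped each other, as did its doxorubicin groups, with wide gaps between treatments. It rose by 1.31 in WT (SE 0.10, adjusted p = 9.10e-06) and 1.35 in KO (SE 0.10, adjusted p = 1.99e-05), the smallest adjusted p of the 10 in each genotype.

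Aen encodes a p53-induced nuclease that helps break down DNA during apoptosis. WT libraries held 152, 150.2 and 167 CPM when mock treated and 288, 236 and 287 after doxorubicin, and KO libraries 159.6, 166 and 167 CPM and then 291, 277 and 314. It rose by 0.78 in WT (SE 0.099, adjusted p = 0.000129) and 0.84 in KO (SE 0.099, adjusted p = 0.000199), and no mock library reached a doxorubicin library.

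**Figure D2:**
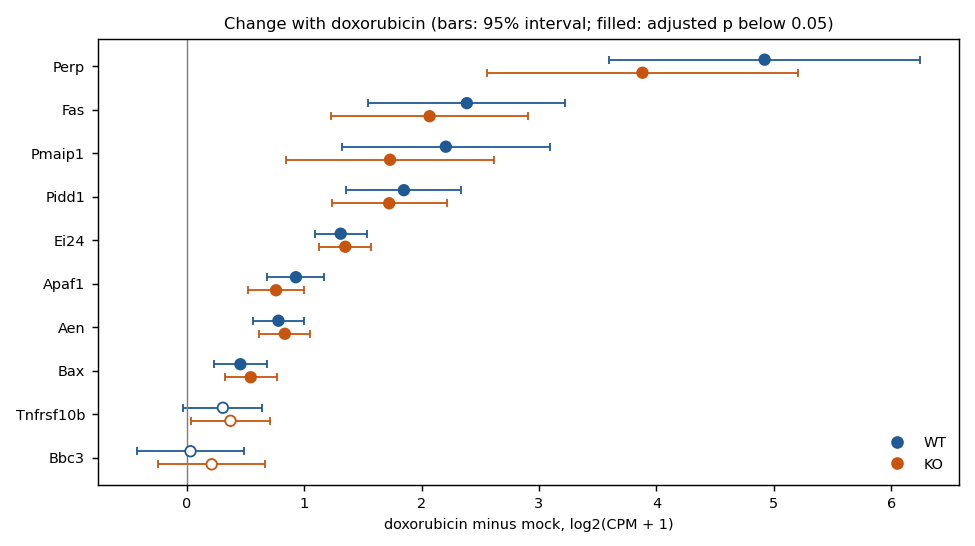
Difference between doxorubicin and mock cells in log2(CPM + 1) for each gene (horizontal axis), in WT and KO, with 95% intervals from the fit over all genes. Filled points have an adjusted p below 0.05, and the genes run from Perp, at 4.92 in WT, to Bbc3, at 0.033, with overlapping WT and KO intervals for every gene.

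Whether the knockout changed the response to doxorubicin was asked by the difference between the genotypes' differences (KO minus WT). None of the 10 genes passed, and 0% of the 10292 genes did, with the replicate block or without it. At an unadjusted p below 0.05 there were 468 genes without the block and 1610 with it. The largest estimate was that of Perp, at -1.04 (SE 0.85, adjusted p = 0.922), with a 95% interval from -2.92 to 0.83. Pmaip1 gave -0.48 (interval -1.72 to 0.77) and Fas -0.32 (interval -1.50 to 0.87). Without the block both intervals span differences of more than 2-fold in the response. Narrower intervals were found for Aen (0.054, from -0.25 to 0.36), Ei24 (0.039, from -0.27 to 0.35) and Bax (0.088, from -0.23 to 0.40). All of these intervals leave out the pairing by replicate number. The block lowered the SE of the rise in each genotype, from 0.38 to 0.15 for Fas and from 0.40 to 0.31 for Pmaip1. For Perp the SE went from 0.60 to 0.39. Blocked intervals of the interaction are not given here. A missing call does not show that the responses were alike.

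In mock cells, 0 of the 10 genes differed between KO and WT by limma, as did 0% of all 10648 genes (440 at an unadjusted p below 0.05). With the block 0.563% of genes were higher and 0.357% lower in KO, none of the 10 among them. The estimates of all 10 were nonetheless above 0, with a median of 0.18 beside 0.058 over all genes, and Ei24 turned below 0 with quantile normalization (-0.039) and median centring (-0.050). The KO range lay above the WT range without overlap for Bax and Apaf1, 2 of 10 genes, beside 8.25% of all genes, and below it for none, beside 1.74%. Apaf1 was higher in KO in all 3 libraries of the same number, by 0.25, 0.10 and 0.28, with an estimate of 0.21 (SE 0.075) that did not pass (adjusted p = 0.978 without the block, 0.131 when blocked). Perp averaged 9.84 ± 11.4 CPM in the WT libraries and 15.2 ± 5.69 CPM in those of KO (SD, n = 3 each), a difference of 1.08 (SE 0.73) that was 2.09 and 1.21 in replicates 1 and 2 and -0.07 in replicate 3. In the blocked fit without replicate 3, Bax (0.18, adjusted p = 0.0303), Tnfrsf10b (0.38, adjusted p = 0.00434) and Perp (1.65, adjusted p = 0.00311) passed as higher in KO, so replicate 3 decides those calls. That made 3 of 10 genes higher and 0 lower, beside 15.5% of all genes higher and 7.42% lower in the same fit. With the block and all replicates, 2 of 8 epithelial markers were higher in KO mock cells, and 1 of 11 fibroblast, 1 of 4 endothelial and 1 of 2 skeletal muscle markers were lower. Their part in these differences was not tested.

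After doxorubicin, Bbc3 had the largest estimate of the 10 between the genotypes. Its KO libraries (24.7 to 29.0 CPM) all lay above its WT libraries (17.5 to 21.5 CPM), and KO exceeded WT by 0.51, 0.48 and 0.28 in replicates 1, 2 and 3. The estimate of 0.42 did not pass without the block (SE 0.16, adjusted p = 0.443), where 0 of 10 genes and 0% of 11125 genes passed (1246 at an unadjusted p below 0.05). With the block Bbc3 was called higher in KO than in WT (SE 0.11, adjusted p = 0.0304), the only 1 of the 10 to pass, beside 11.8% of genes higher and 13.6% lower. That call was lost when any replicate number was left out (adjusted p = 0.136, 0.0574 and 0.0688 without 1, 2 and 3), with estimates of 0.38, 0.39 and 0.50. It did not pass in a fit of all 12 libraries without a block either (adjusted p = 0.305).

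Ranges also lay apart, with KO higher, for Bax (262 to 294 against 206 to 255 CPM) and Tnfrsf10b (119.5 to 134 against 104 to 116 CPM). That made 3 of 10 genes with KO above WT, beside 9.70% of all genes, and 0 with KO below, beside 6.64%. Pmaip1 was the gene with the lowest estimate, at -0.28 (SE 0.16, adjusted p = 0.462 without the block, 0.0864 when blocked), and KO was below WT in all 3 replicates, at -0.27, -0.54 and -0.03. Without replicate 3 the blocked fit called it lower (-0.41, adjusted p = 0.0299), 1 of 10 genes lower and 0 higher, beside 9.19% of all genes lower and 4.84% higher. Fas, Pidd1, Apaf1, Perp, Ei24 and Aen had overlapping ranges and estimates from -0.069 to 0.12. Their 95% intervals without the block reached no lower than -0.68 and no higher than 0.75, and that of Perp was the widest. In the blocked fit with all replicates, 4 of 10 epithelial markers (list median -0.48), 2 of 2 skeletal muscle markers (median -1.40), 2 of 11 fibroblast markers, 1 of 4 endothelial and 1 of 2 blood markers were lower in KO, and 0 of these lists' genes were higher. Their part in the genotype differences was not tested. The comparisons of genotypes share libraries with those of treatment, so agreement between them is not separate evidence.

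**Figure D3:**
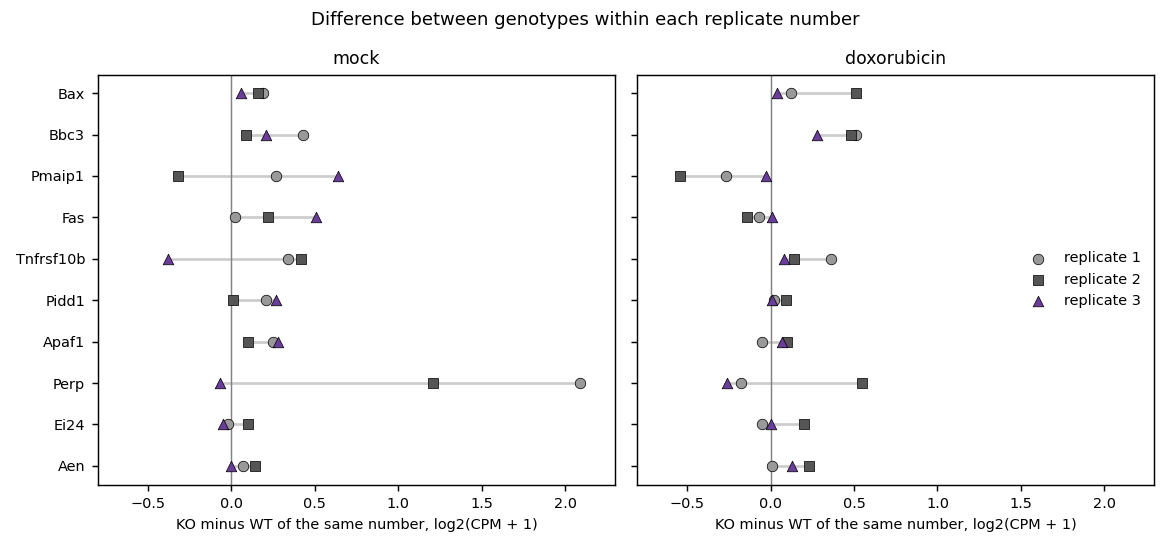
KO minus WT in log2(CPM + 1) for libraries of the same replicate number (horizontal axis), by gene, in mock cells (left) and after doxorubicin (right). Bbc3 lies above 0 in all 3 replicates of both panels, Pmaip1 lies below 0 in all 3 after doxorubicin, and Perp in mock runs from -0.07 in replicate 3 to 2.09 in replicate 1.

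Levels of different genes can be compared only per length, and CPM was divided by the exonic length of each gene in kilobases (GENCODE vM21 annotation). On that scale Bax was the highest of the 10 in WT mock cells at 109 CPM per kb, followed by Pmaip1 at 70.2, with Pidd1 (4.98), Fas (5.00) and Perp (5.04) the lowest. After doxorubicin the WT order was Pmaip1 (285), Bax (151) and Perp (119), and Bbc3 was now the lowest at 9.25 CPM per kb. KO cells gave Pmaip1 (233), Bax (176) and Perp (122) as the leading genes and Bbc3 again as the lowest, at 12.5. From first to last base, Bax and Fas overlap annotated genes on the same strand, and Apaf1 and Ei24 overlap genes on the opposite strand. Whether their exons overlap was not tested. Whether reads were counted by strand is not given in the sources used here.

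Over the 12 libraries, likeness of pattern was measured as the root mean square difference of log2(CPM + 1) after each gene's mean was removed, which is a description and no test. The gene most like Perp was Dsp, at a distance of 0.686, although Perp itself varied by 2.34 on the same scale. Apaf1 and Aen were nearest to each other among the 10 (0.091), and Aen was the gene nearest to Apaf1 among all 10292. The nearest gene to Fas was Slc2a9 (0.177), to Pidd1 Rnf167 (0.147), to Ei24 AW555464 (0.077), to Bax 5430437P03Rik (0.063), to Aen Frg1 (0.083) and to Pmaip1 Tex2 (0.279). The second nearest were Pcsk6 for Perp, Nfe2l2 for Apaf1, Fam83h for Fas, Ercc5 for Pidd1, Dalrd3 for Ei24, Mrps14 for Bax, Efnb2 for Aen and Irf5 for Pmaip1. Such distances are small for genes that vary little and do not rank genes by likeness across members.

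Lists of partner genes in the death pathways were counted beside the shares of all genes, which were 25.9% higher and 21.4% lower in WT and 19.9% and 14.6% in KO. With the block those shares were 33.6% and 30.1% in WT and 29.6% and 24.0% in KO. Among the 4 anti-apoptotic BCL2 genes measured (of 6 on the list), 2 rose and 1 fell in WT, and 2 rose and 0 fell in KO. Their medians were 0.032 and 0.24, to be read, as for the lists that follow, beside 0.011 in WT and 0.035 in KO over all genes. Bcl2l1, which encodes the survival protein BCL-XL, rose in WT from 83.7 ± 5.41 to 153 ± 24.8 CPM (log2 0.85, adjusted p = 0.00110; SD, n = 3 here and below), and in KO from 94.3 ± 15.0 to 196 ± 27.1 CPM (log2 1.05, adjusted p = 0.000603). Mcl1, the survival gene that NOXA opposes, rose by 0.33 in WT and 0.35 in KO. Bcl2 fell from 17.0 ± 1.90 to 9.44 ± 0.617 CPM in WT (-0.78, adjusted p = 0.00103) and gave -0.33 in KO (adjusted p = 0.0862).

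Of 8 other BCL2 family genes of the effector and BH3-only kind (11 listed), 4 rose and 1 fell in WT and 3 rose and 2 fell in KO (medians 0.18 and 0.086), and with the block 4 rose and 3 fell in each. Bcl2l11, which encodes the BH3-only protein BIM, rose in WT from 21.7 ± 3.62 to 67.7 ± 8.13 CPM (1.60, adjusted p = 0.000139), and in KO from 24.1 ± 6.75 to 51.4 ± 6.34 CPM (1.10, adjusted p = 0.00222). Bad and Bnip3l rose in both genotypes, by 0.47 and 0.47 in WT and by 0.38 and 0.31 in KO, and Bcl2l13 rose by 0.49 in WT. Bak1, the other pore-forming effector beside Bax, went the opposite way, in WT from 93.3 ± 5.84 to 59.7 ± 5.90 CPM (-0.64, adjusted p = 0.00117), and in KO from 92.2 ± 9.26 to 72.1 ± 7.60 CPM (-0.35, adjusted p = 0.0373). Bok fell in KO (-1.51, adjusted p = 0.0181), and in WT it gave -0.79 (adjusted p = 0.149, and 0.00796 with the block).

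Of 13 measured genes of the apoptosome, the caspases and their regulators (16 listed), 3 rose and 3 fell in WT and 2 rose and 1 fell in KO, with medians of 0.17 and 0.25. With the block these counts were 6 and 5 in WT and 5 and 2 in KO. The WT counts without the block are near the shares of all genes and say nothing particular of this list. Dffb, which encodes the caspase-activated DNase, rose in WT from 5.11 ± 0.791 to 40.4 ± 9.95 CPM (2.74, adjusted p = 2.15e-05), and in KO from 5.59 ± 1.46 to 24.2 ± 7.28 CPM (1.92, adjusted p = 0.000252). Cycs, the cytochrome c gene, rose by 1.08 and 0.70. Birc5, which encodes survivin and is also a gene of dividing cells, fell by 2.29 in WT and by 3.20 in KO. Birc3 and Htra2 fell in WT by 0.52 each.

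Among 12 measured genes of death receptor signalling (17 listed), 5 rose and 4 fell in WT and 4 rose and 1 fell in KO (medians -0.11 and 0.0080), and with the block 5 rose and 4 fell in each. Tnfrsf23 and Tnfrsf22, relatives of the TRAIL receptor that lack a working death domain, rose by 2.39 and 1.18 in WT and by 1.84 and 0.81 in KO. Tnfrsf23 went from 64.7 ± 6.27 to 349 ± 76.1 CPM in WT and from 52.1 ± 5.69 to 198 ± 74.6 CPM in KO. Cflar, whose product FLIP blocks caspase-8, rose by 1.04 in WT (adjusted p = 0.000749) and 1.06 in KO (adjusted p = 0.00122). Tnfrsf21, or death receptor 6, rose by 1.22 in WT and gave 0.44 in KO (adjusted p = 0.225, and 0.0459 with the block). Casp8 and the adaptor gene Traf2 fell in WT by 0.58 and by 0.65, and Ripk1, a kinase of receptor complexes, fell by 0.44 in WT and by 0.33 in KO.

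A further 18 measured p53 targets of death or survival (20 listed) were chosen as known targets, so their direction is not independent evidence: 11 rose and 0 fell in WT, and 9 rose and 0 fell in KO, with 12 and 0 in each under the block (medians 0.59 and 0.51). Trp53i11 rose in WT from 11.8 ± 3.83 to 137 ± 20.7 CPM (3.46, adjusted p = 7.93e-06), and in KO from 11.4 ± 2.85 to 89.4 ± 22.0 CPM (2.86, adjusted p = 3.69e-05). Trp53inp1 rose by 1.54 and 1.39, and Pml, the gene of nuclear bodies, by 1.44 and 1.31. In a list of 8 core p53 pathway genes, 4 rose and 1 fell in each genotype, with Trp53, Mdm2, Cdkn1a and Ccng1 higher and Chek1 lower. Mdm2, the ubiquitin ligase that restrains p53, rose by 1.79 in WT and 1.89 in KO.

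**Figure D4:**
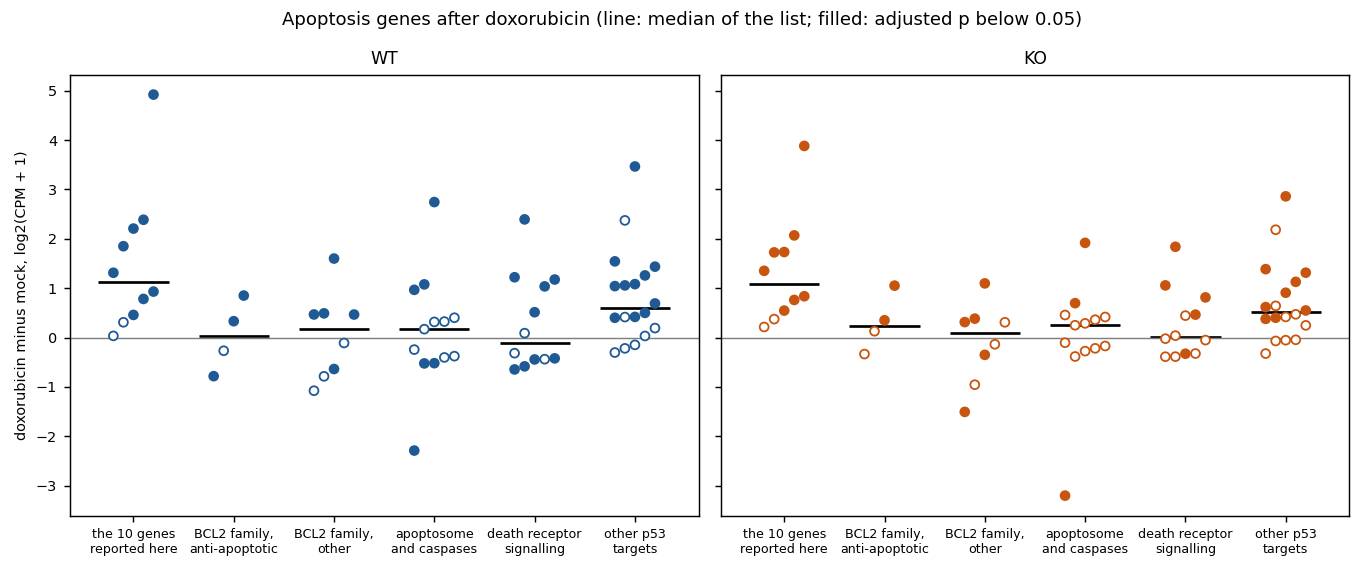
Doxorubicin minus mock in log2(CPM + 1) (vertical axis) for the 10 genes and 5 lists of apoptosis genes, in WT (left) and KO (right). Each point is a gene, filled where the adjusted p is below 0.05, and lines mark medians: 1.12 and 1.09 for the 10 genes, and -0.11 and 0.0080 for death receptor signalling, where points lie on both sides of 0.

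After doxorubicin and with the block only, several of these partners differed between KO and WT, as did 11.8% (higher) and 13.6% (lower) of all genes. In the anti-apoptotic list 2 were higher and 0 lower, namely Bcl2 (0.51, adjusted p = 0.0253) and Bcl2l1 (0.36, adjusted p = 0.0204). Of the other BCL2 family genes 0 were higher and 2 lower, Bok (-0.86, adjusted p = 0.0289) and Bcl2l11 (-0.39, adjusted p = 0.0472). In the apoptosome list 2 of 13 were higher, Casp9 (0.37) and Htra2 (0.34), and 3 lower, among them Dffb (-0.73, adjusted p = 0.00637) and Cycs (-0.33). Of the 12 death receptor genes 1 was higher and 3 lower: Traf2 (0.44) was higher and Tnfrsf23 (-0.86, adjusted p = 0.00548), Tnfrsf21 (-0.67) and Tnfrsf22 (-0.48) lower. Of the 18 further p53 targets 2 were higher and 4 lower: Phlda3 (0.42) was among the higher ones and Trp53i11 (-0.63, adjusted p = 0.00858), Dram1 (-0.55), Steap3 (-0.47) and Pml (-0.31) lower. Of the 8 core p53 pathway genes 1 was higher, Mdm4 (0.37, adjusted p = 0.0358), and 0 lower. Without the block none of these genes passed. In mock cells none of the 5 apoptosis lists had a gene that passed with the block or without it, and of the core p53 pathway genes 1 was lower in KO with the block, Cdkn1a (-0.85, adjusted p = 0.0222).

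Library depth ran from 14327048 to 20511907 reads, and replicates of a group differed by more than counting noise. The targeted RNA itself was not analysed here. Median centring moved the median of all genes in the WT doxorubicin comparison from 0.011 to -0.10 and the split from 2664 higher and 2199 lower to 2202 and 2944, while 8 of the 10 genes rose in each genotype under both quantile normalization and median centring. In KO cells median centring moved the split from 2052 higher and 1500 lower to 1669 and 2027.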

How the data were processed

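RNA sequencing of 12 libraries was analysed. The authors deposited CPM per gene in 2 tables, of mock (10648 genes) and doxorubicin cells (11125 genes), each with both genotypes, and every gene listed exceeds 2 CPM in all WT libraries. The deposited names of both carry the tag noYX, so genes of the X and Y chromosomes may have been left out whatever their level. Per the labels' protocols, a stranded mRNA kit was used. NCBIM37, HTSeq, edgeR and TopHat2 2.0.6 appear in the submitters' processing notes, without their roles. All values (100%) were whole multiples of 1 read within 0.001 of a read. That unit was fitted to each library separately, so the check alone does not show that both tables share a scale. The listed genes made up 99.19% to 99.64% of the total of each library, so CPM adds up to nearly the same total in both tables.

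The tests used limma (version 3.58.1, R 4.3.3, eBayes with trend) on log2(CPM + 1), without a filter, and adjusted over all genes. Doxorubicin and the interaction were fitted on all 12 libraries and 10292 genes, genotype within each table. The fit was tested on simulated data. The members and gene lists were chosen with earlier results of these data known. Named genes are the members, the 3 largest called rises and falls of each list in each genotype, and list genes called between genotypes, some of which are not reported here. No source says that replicates came from separate embryos, so p-values measure the spread between these cultures.

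The labels give the groups the same replicate numbers. Same-numbered libraries deviated together from their group means (correlations 0.342 to 0.856 in 18 pairs of libraries, across genes). Those of different numbers gave -0.732 to -0.0065. Deviations from a group mean cancel within the group, so these negative values follow on average from the positive ones and are not separate evidence. The main fits nevertheless left the pairing out and compared group means only. The fit with the replicate block treats the numbers as pairs, and it stands beside a result where it changes the call.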

Additional observations from a re-analysis of the deposited data

How the results depend on the processing

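Alternatives were a pseudocount of 0.1, a mean of at least 10 CPM, quantile normalization, median centring, no variance trend, the replicate block, other libraries in the fit, each library left out, and each replicate number left out under the block. The planned count test was not run, because the unit of the tables is CPM, and in its place limma voom on the reads recovered from CPM was added after seeing the data. Of 1070 values of the 10 genes under these, 100 of them by voom, 1012 kept their direction and side of the threshold, 13 newly passed, 45 changed sign and none that passed was lost. The 8 genes that rose passed in each genotype under all of these, with adjusted p up to 0.0230 (Bax, WT) and 0.0280 (Pmaip1, KO). The blocked fit raised the KO doxorubicin count from 3552 to 5524 genes (5530 with voom). Between genotypes in mock 0 genes passed, 98 with the block, 120 with voom and the block, 1 with voom or without the trend, 5 in the fit of all 12 libraries, and 0 to 2438 with a library or number left out. Of the 10 genes, 0 to 3 passed then. After doxorubicin the counts were 0, then 2820 with the block and 2658 with voom and the block, 1 with voom or a pseudocount of 0.1, 2 in all 12 libraries, and 0 to 2590 with a library or number left out. There 1 of the 10 passed with the block, by limma and by voom, and 0 to 1 with a library or number left out. Beyond what stands beside each result, the block changed no call of the 10 genes.

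No value passed in the fit that turned its sign, and the cause was not tested. Bbc3 with doxorubicin in WT was -0.031 with quantile normalization, -0.077 with median centring and -0.11 to 0.20 with libraries left out, and in KO -0.0067 to 0.37. Ei24 between genotypes in mock was -0.039 with quantile normalization and -0.050 with median centring. With libraries or numbers left out, the interaction ran from -0.042 to 0.16 for Bax, -0.040 to 0.33 for Bbc3, -0.91 to 0.055 for Pmaip1, -0.64 to 0.088 for Fas, -0.15 to 0.24 for Tnfrsf10b, -0.33 to 0.028 for Pidd1, -0.054 to 0.095 for Ei24 and -0.041 to 0.11 for Aen. KO against WT in mock ran from -0.34 to 0.63 for Pmaip1, -0.16 to 0.57 for Fas, -0.020 to 0.38 for Tnfrsf10b and -0.032 to 0.072 for Ei24. After doxorubicin it ran from -0.28 to 0.11 for Fas, -0.14 to 0.19 for Pidd1, -0.070 to 0.12 for Apaf1, -0.22 to 0.33 for Perp and -0.043 to 0.11 for Ei24. The 2.09 CPM of Perp in WT mock replicate 1 rests on 30 reads, beside 90 and 396 reads in WT mock replicates 2 and 3. The part of depth in this spread was not tested.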
